A study of Mus musculus with 12 samples.

Results

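Major urinary proteins are small secreted lipocalins that carry volatile ligands, and this account follows 4 of their genes, Mup3, Mup8, Mup20 and Mup21, in mouse livers and liver tumors. The 4 genes were chosen from measured values of these same libraries: their counts in livers and tumors were known when they were picked, with no threshold stated, and Mup8 is named for a tumor effect that differed between the genotypes. The count tables list 24421 gene symbols, of which 20 are Mup genes by symbol, and a further 2 (Gm2083 and LOC100048884) are names that RefSeq gives for Mup13 and Mup18, so that the members are 4 of 22 Mup symbols. Mup13 is also listed under its own name, and the 22 symbols stand for 21 RefSeq genes. RNA was sequenced from 12 bulk tissue samples of 6 aged mice kept on a standard diet. The 4 p21Tert mice carry Tert, the catalytic subunit of telomerase, expressed under the promoter of Cdkn1a (p21), and the 2 p21TertCi mice carry a catalytically inactive Tert under the same promoter. Each mouse gave 1 non-tumoral liver sample and 1 tumor. No sample without a Tert transgene was analysed here, and the labels give neither the age nor the sex of these mice. Samples are named as the labels give them, with the number of the mouse inside the name. Liver p_961 has no tumor of that number and tumor p_662_T no liver, and they were set side by side only by elimination, so that the count of 6 mice rests on this pair being 1 animal, as the study's own records name it. The exome data of the study place an activating Ctnnb1 (beta-catenin) mutation in tumors p_662_T and p_663_T, which is not in the labels of these samples. The study's diagnoses list tumors p_663_T, T_992 and L984T_CI as adenomas and the other 3 as carcinomas, although p_663_T is called a carcinoma elsewhere in it.

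In the mouse, hepatocytes make most Mup protein, which passes through the blood into the urine and carries scent signals. Transcription of the genes in the liver depends on growth hormone, whose pulses are steeper in males, and on androgen, thyroid hormone and glucocorticoid, so that Mup mRNA is more abundant in male than in female liver. Mup20 encodes darcin, the male pheromone protein that makes a scent mark attractive to females. The genes stand in 1 cluster on chromosome 4, with a centre of nearly identical copies and a more diverged set toward its edges.

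On GRCm38 (mm10), the build the authors aligned to, all 4 members are protein-coding genes on the minus strand of chromosome 4. Mup8 (ENSMUSG00000078687) covers chr4:60218621-60222599 among the nearly identical copies. Mup20 (ENSMUSG00000078672) covers chr4:62050234-62054158, Mup3 (ENSMUSG00000066154) chr4:62083476-62087342 and Mup21 (ENSMUSG00000066153) chr4:62147932-62150863, so that these 3 are neighbours at the far end of the cluster. The coding exon 2 of each, 134 bases long, is printed because it shows how much of a read could tell the genes apart. It is given on the minus strand, 5′ to 3′, beside Mup14, the other Mup gene nearest to Mup8 in coding sequence. Capitals mark the bases that differ from Mup8.
Mup8, chr4:60221902-60222035: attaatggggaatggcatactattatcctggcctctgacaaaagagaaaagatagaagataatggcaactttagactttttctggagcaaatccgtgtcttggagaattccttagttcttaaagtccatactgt
Mup14, chr4:61303322-61303455: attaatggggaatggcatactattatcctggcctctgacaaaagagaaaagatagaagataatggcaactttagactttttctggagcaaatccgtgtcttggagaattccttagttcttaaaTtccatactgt
Mup20, chr4:62053480-62053613: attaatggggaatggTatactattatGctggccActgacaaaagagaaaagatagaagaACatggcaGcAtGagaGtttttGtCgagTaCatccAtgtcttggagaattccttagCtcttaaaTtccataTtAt
Mup3, chr4:62086800-62086933: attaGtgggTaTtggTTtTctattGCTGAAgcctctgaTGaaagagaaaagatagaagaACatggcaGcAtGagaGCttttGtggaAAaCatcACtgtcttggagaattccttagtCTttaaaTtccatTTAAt
Mup21, chr4:62150195-62150328: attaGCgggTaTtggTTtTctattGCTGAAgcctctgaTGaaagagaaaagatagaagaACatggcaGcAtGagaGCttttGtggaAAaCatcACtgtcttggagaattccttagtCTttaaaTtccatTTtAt

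In this exon Mup14 differed from Mup8 at 1 base, Mup20 at 18 and Mup3 and Mup21 at 34 each. Over the aligned coding sequence, Mup8 and Mup14 were 99.4% identical (3 of 540 bases differed), Mup3 and Mup21 96.3% (20 of 543), Mup8 and Mup20 90.7% (50 of 540) and Mup3 and Mup8 86.2% (74 of 535). How far reads of 1 gene could be counted to another was read from the annotated transcripts of the 22 protein-coding Mup genes on GRCm38, cut into every window of 150 bases, the read length. None of the 835 windows of Mup3 and none of the 528 of Mup21 stood in any other gene's transcript. Of Mup20, 31.1% of windows were shared, all with the pseudogene Mup-ps19, which the count tables do not list. Of Mup8, 45.6% of windows were shared with 15 other genes, none of them another member. Over the 18 other protein-coding Mup genes the median shared was 78.3%, with a range of 0 to 100%. How reads that fit several places were counted is not given in the sources used here, so Mup8 values may hold reads of its copies or lack its own. The windows take each read alone, while the reads were paired. These percents are therefore not the share of reads that fit several places. RefSeq also gives Mup3 as an older name of Mup7, and Mup8 as an older name of Mup10 and Mup19. All these symbols stand in the count tables side by side and were taken as written, although the tables use older names elsewhere, and the windows and positions given for Mup3 and Mup8 hold only if the symbols name these loci.

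**Figure D1:**
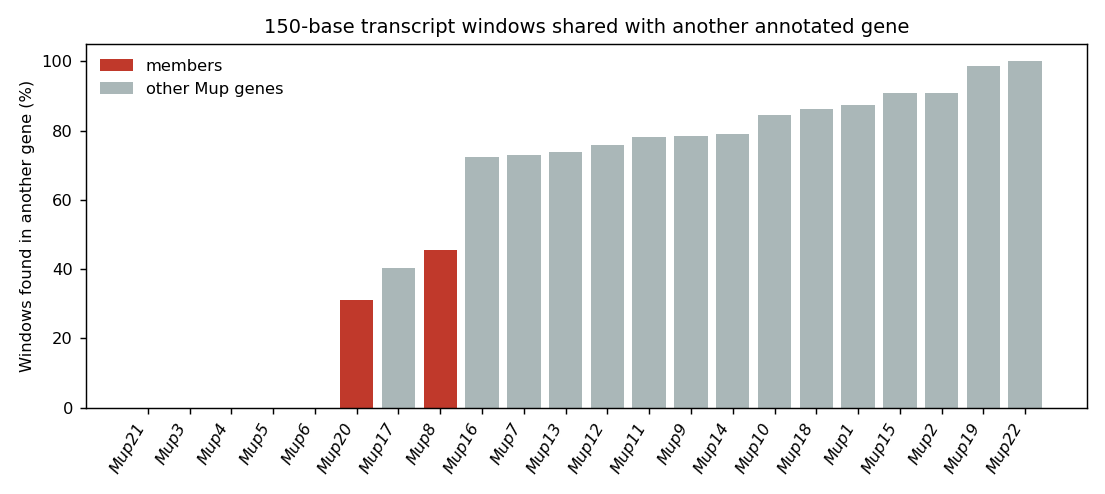
Share of the 150-base windows of each Mup transcript (x axis, gene names; y axis, percent of windows) that also stand in the transcript of another gene, with the 4 described genes in colour. Mup3 and Mup21 stand at 0, Mup20 at 31.1% and Mup8 at 45.6%.

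RefSeq holds the start-site sequence of 2 of the 4 members, Mup3 and Mup21, which neighbour each other and were both low in the tumors, as described further on. The 250 bases before each start (GRCm38.p6, minus strand, 5′ to 3′) are printed with capitals where the pair differs in their alignment. The start that RefSeq gives lies inside the gene as GENCODE places it, so that the last 25 bases printed for Mup3 and the last 22 for Mup21 are within the spans given above.
Mup3, chr4:62087318-62087567: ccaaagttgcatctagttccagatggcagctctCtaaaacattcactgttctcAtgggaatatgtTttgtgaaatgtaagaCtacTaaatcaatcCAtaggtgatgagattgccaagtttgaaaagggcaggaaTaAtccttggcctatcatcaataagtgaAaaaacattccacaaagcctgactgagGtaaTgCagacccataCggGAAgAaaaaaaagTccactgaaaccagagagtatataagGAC
Mup21, chr4:62150842-62151091: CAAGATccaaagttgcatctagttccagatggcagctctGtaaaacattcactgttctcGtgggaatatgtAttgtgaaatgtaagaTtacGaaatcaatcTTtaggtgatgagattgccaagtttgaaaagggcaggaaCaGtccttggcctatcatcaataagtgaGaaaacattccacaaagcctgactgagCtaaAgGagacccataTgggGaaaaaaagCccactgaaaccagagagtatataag

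The pair was identical at 93.4% of 244 aligned bases, with 16 differing. The letters TTCNNNGAA, which STAT5 (a factor that growth hormone activates) is known to bind, were searched on both strands and stood in none of the 14 Mup promoters in the table, against 7.01% of all 32817 promoters. TATAAA, the common core of a TATA box, stood in 2 of the 14, Mup4 and Mup6, against 12.4% of all. Neither was found in the windows of Mup3 or Mup21, which says only that these letters are not in these 250 bases. Both windows hold the close letters tatataag near their end, which a search for TATAAA does not count.

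Counts assigned to genes summed to between 14571716 and 23932529 in the livers and between 17471387 and 26170661 in the tumors. All 12 libraries had Xist at 1.46 CPM or less (CPM are counts scaled to 1000000 per library) and Ddx3y, a gene of the Y chromosome, at 36.3 to 88.5 CPM. This is the pattern of male tissue in each library. The 7 hepatocyte markers Alb, Apoa1, Apob, Ttr, Trf, Ahsg and Serpina1c were read in all libraries, and their summed level was 55670 to 74828 CPM in the livers, 28703 and 52038 in the Ctnnb1-mutated tumors and 130301 to 150374 in the other 4 tumors. The 4 beta-catenin targets Axin2, Glul, Lgr5 and Nkd1 summed to 9763 and 10581 CPM in tumors p_662_T and p_663_T and to 144 to 451 in the other tumors, the same 2 tumors that the exome class names.

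All CPM here are scaled for library composition by TMM (trimmed mean of M values). Mup3 read 11527 CPM in p21Tert liver p_961, 7629 in p_663, 6534 in p_941 and 4835 in NT_992, and 2908 and 2953 CPM in p21TertCi livers L981_CI and L984_CI. In the tumors it read 35.3 CPM in p_662_T, 11.3 in p_663_T, 267 in p_941_T and 615 in T_992, and in the p21TertCi tumors 11.4 in L981T_CI and 1133 in L984T_CI. Every tumor was below every liver, and among the tumors the highest (L984T_CI) read 101 times the lowest (p_663_T). Set against the liver of its own mouse, Mup3 was left at 0.148% in tumor p_663_T, 0.306% in p_662_T (against liver p_961), 0.390% in L981T_CI, 4.09% in p_941_T, 12.7% in T_992 and 38.4% in L984T_CI. In bulk tissue, fewer hepatocytes and less Mup mRNA per hepatocyte cannot be told apart.

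Mup8 read 986 CPM in liver p_961, 294 in p_663, 169 in p_941 and 333 in NT_992, but only 21.6 and 8.72 CPM in the p21TertCi livers L981_CI and L984_CI, without overlap between the genotypes. In the tumors it came down to 1 count each in p_662_T (0.0451 CPM), p_663_T (0.0438) and L981T_CI (0.0514), 15 counts (0.810 CPM) in p_941_T, 19 counts (0.681 CPM) in T_992 and 158 counts (8.97 CPM) in L984T_CI. The 3 libraries at 1 count are at the limit of the depth, and their order among themselves is not resolved. As a percent of the mouse's own liver, tumor p_662_T kept 0.00457% (95% exact counting interval 0.000116 to 0.0255), tumor p_663_T 0.0149% (0.000377 to 0.0830) and tumor L981T_CI 0.237% (0.00600 to 1.33). Tumors p_941_T and T_992 kept 0.478% and 0.204%. Tumor L984T_CI stood at 103% of its own liver (82.5 to 128), an interval that holds equal levels in both samples of this mouse. These intervals cover counting error only.

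Mup20, the darcin gene, read 6379 CPM in liver p_961, 8679 in p_663, 4437 in p_941 and 2069 in NT_992, and 606 and 2454 in the p21TertCi livers L981_CI and L984_CI. The tumors ran from 79.2 CPM in L981T_CI over 160 in p_662_T, 309 in p_663_T and 836 in p_941_T to 3024 in T_992 and 3255 in L984T_CI. Unlike Mup3, the 2 tissues overlapped, since tumors T_992 and L984T_CI read above 3 of the livers and p_941_T above 1. They also stood above the livers of their own mice, at 146% and 133%, while the other tumors kept 2.52% (p_662_T), 3.56% (p_663_T), 13.1% (L981T_CI) and 18.8% (p_941_T). Mup21 read 355, 312, 169 and 344 CPM in the p21Tert livers p_961, p_663, p_941 and NT_992 and 31.0 and 53.4 CPM in the p21TertCi livers. Its tumors read 2.30 CPM in p_662_T, 1.18 in p_663_T, 11.6 in p_941_T, 14.6 in T_992, 20.03 in L981T_CI and 24.1 in L984T_CI. Here the p21TertCi tumors were the highest of the 6 while the p21TertCi livers were the lowest of the livers, and the tumors still kept 64.5% (L981T_CI) and 45.1% (L984T_CI) of their own livers, against 0.379 to 6.85% in the p21Tert mice.

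**Figure D2:**
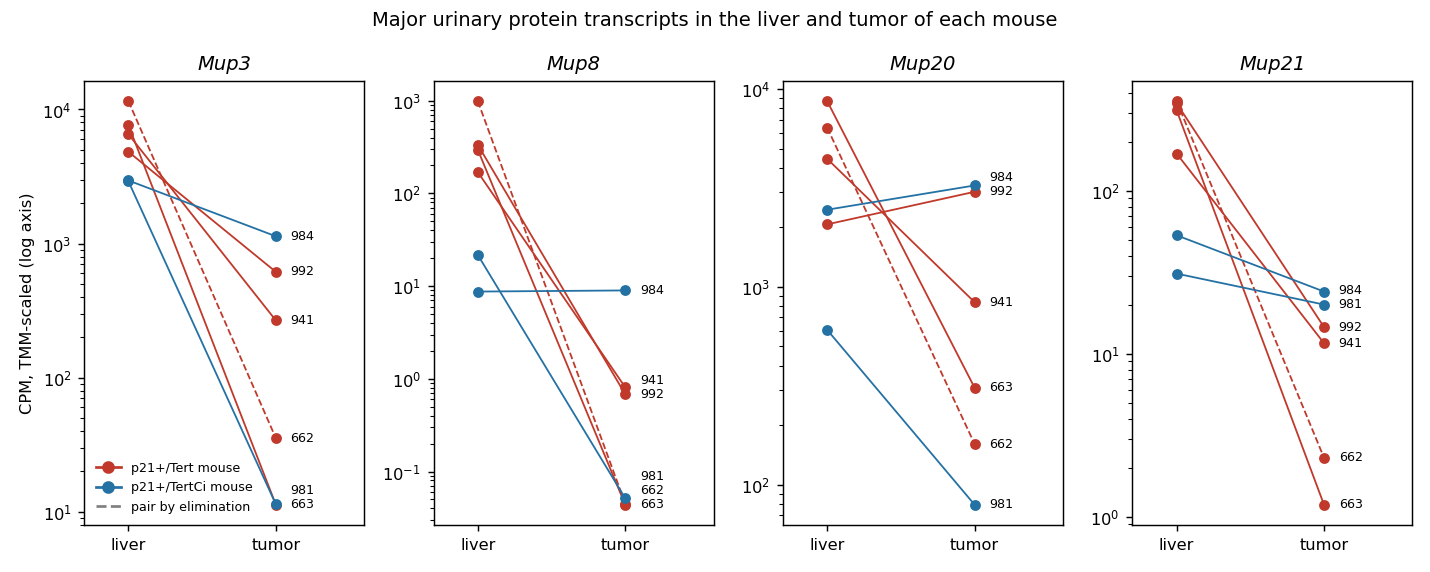
Level of each of the 4 genes (y axis, CPM scaled by TMM, log scale) in every liver and tumor (x axis), with a line joining the 2 samples of a mouse and colours for genotype. Mup3 and Mup21 were lower in the tumor of all 6 mice, Mup20 was higher in tumors T_992 and L984T_CI than in their livers, and Mup8 in L984T_CI stood at 103% of its liver.

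All 4 members passed the filter on low counts. Because they were picked with their liver and tumor counts known, the values of tumors against livers are descriptions with no test. In edgeR's quasi-likelihood fit over 13822 genes, Mup3 was 17.5-fold lower over the 6 tumors than over the 6 livers (log2 fold change -4.13 ± 1.09 SE) and Mup21 17.1-fold lower (-4.10 ± 0.81). Mup20 was at -1.68 ± 0.89 and Mup8 at -7.44 ± 1.56. In 2 members, Mup3 and Mup21, every tumor was below every liver, as in 2.18% of all genes tested, and nothing is read from this count.

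With the mouse as a block over all 6 pairs, Mup3 was at -5.95 and Mup21 at -4.19, and with only the 5 mice numbered in both tissues at -5.12 and -3.45. Leaving out 1 library at a time gave -5.02 to -3.84 for Mup3, -4.41 to -3.85 for Mup21, -2.22 to -1.33 for Mup20 and -9.83 to -6.57 for Mup8.

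The tumor effect within each genotype was the basis on which Mup8 was named, so the following values are descriptions with no test. In the p21Tert mice Mup8 was at a log2 fold change of -10.15 ± 1.46 (tumors minus livers), Mup21 at -5.33 ± 0.75, Mup3 at -5.05 ± 1.41 and Mup20 at -2.33 ± 1.12. In the p21TertCi mice the same contrast gave -1.75 ± 1.42 for Mup8, -0.96 ± 0.89 for Mup21, -2.36 ± 1.77 for Mup3 and 0.11 ± 1.51 for Mup20. These rest on 2 tumors, and without tumor L984T_CI they were -8.07 for Mup8, -8.05 for Mup3 and -4.32 for Mup20, while Mup21 was at -1.12. Without tumor L981T_CI they were -0.75 for Mup8, -1.37 for Mup3 and 1.08 for Mup20. With the mouse as a block Mup3 was at -4.69 and Mup20 at -1.28. The p21TertCi effect minus the p21Tert effect was thus 8.39 ± 2.04 for Mup8, 4.37 ± 1.15 for Mup21, 2.70 ± 2.11 for Mup3 and 2.44 ± 1.88 for Mup20.

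For Mup8 this difference rested largely on 1 tumor. Without p21TertCi tumor L984T_CI it came down to 2.08, and it turned to -2.99 for Mup3 and -1.99 for Mup20. With the block over the 5 mice numbered in both tissues it was 6.34 for Mup8, 4.38 for Mup21, 0.61 for Mup3 and 1.02 for Mup20. For Mup21 it stayed between 4.02 and 4.95 whichever library was left out. The 2 genotypes' tumors overlapped in Mup8, 0.0438 to 0.810 CPM in p21Tert against 0.0514 and 8.97 in p21TertCi, while the livers of the 2 genotypes did not overlap. Across all genes no difference between genotypes passed edgeR's test (0 of 15182, with 556 at an unadjusted p under 0.05, while DESeq2 called 6).

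Between the livers alone, all 4 members were lower on average in p21TertCi than in p21Tert mice, and none of the 3 tested passed. The members' counts in these livers were known when they were picked, so the p-values below describe the fit and are no independent test. The fold was 2.58 for Mup3 (log2 fold change -1.37 ± 1.55, adjusted p = 0.969 by edgeR), 3.47 for Mup20 (-1.79 ± 1.43, 0.944) and 6.90 for Mup21 (-2.79 ± 0.88, 0.930). For Mup8, not tested here, it was 29.2 (-4.87 ± 1.54). edgeR called 0% of all genes in this contrast (756 of 15182 at an unadjusted p under 0.05), and DESeq2 called 42. In 3 members (Mup3, Mup8 and Mup21) both p21TertCi livers lay below all p21Tert livers, beside 9.37% of all genes tested in which this was so. Markers of macrophages (Adgre1, Cd68, Clec4f, Csf1r) summed to 71.8 and 737 CPM in the p21TertCi livers and to 86.3 to 163 in the p21Tert livers, while the summed hepatocyte markers were 58688 and 74828 CPM against 55670 to 72247. Their part in the levels of the members was not tested.

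Tumors p_662_T and p_663_T, with mutated Ctnnb1, were then set against the other 4 tumors, a class taken from exome data. The members were picked with the counts of these same tumors known, so the p-values here describe the fit and are no independent test. Both mutated tumors are from p21Tert mice. Mup21 read 2.30 and 1.18 CPM in them and 11.6 to 24.1 in the others, with no overlap, and was 10.2-fold lower (log2 fold change -3.34 ± 0.48, adjusted p = 0.0023 by edgeR). It was the 1 member of 4 called, beside 11.7% of all genes called in either direction. In CPM, Mup21 and Mup8 of the 4 members were lower in every mutated tumor than in every other, as were 19.0% of all genes. For Mup8 this separation is not resolved, since each mutated tumor and also tumor L981T_CI held 1 count. Nothing is read from this share. Mup21 was called in each alternative tried, with adjusted p up to 0.0248, also against the other p21Tert tumors alone (-2.91, adjusted p = 0.00811), an alternative chosen after seeing the data.

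Mup3 was at -4.46 ± 1.37 in the mutated tumors (adjusted p = 0.0546), Mup8 at -5.69 ± 2.09 (0.0933) and Mup20 at -2.96 ± 1.23 (0.133), which did not pass. The overlap came from p21TertCi tumor L981T_CI, not among the mutated, in which Mup3 read 11.4 CPM and Mup20, lowest there of all tumors, 79.2. Without that tumor Mup3 (adjusted p = 0.00703) and Mup20 (0.0438) were called, and DESeq2 called Mup3 (0.00131), Mup8 (0.00619) and Mup20 (0.0432) with all tumors. Of the 7 hepatocyte markers 4 fell in the mutated tumors (Alb at -2.47, Serpina1c at -2.36, Ahsg at -2.04, Trf at -1.80 on the log2 scale) and Ttr, at -0.06, was not called. Of the markers of other cell types, 3 of 4 of endothelium, 1 of 4 of cholangiocytes and 1 of 4 of stellate cells fell, and 0 of 4 of T cells, 0 of 3 of B cells and 0 of 4 of macrophages were called. The part of these cell types in the Mup21 value was not tested.

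The mixture of Mup transcripts changed along with their sum. The 20 Mup symbols together took 4.97%, 2.19%, 1.89% and 1.62% of all counts in p21Tert livers p_961, p_663, p_941 and NT_992, and 0.423% and 0.558% in p21TertCi livers L981_CI and L984_CI. In the tumors their share was 0.0211% in p_662_T, 0.0429% in p_663_T, 0.136% in p_941_T, 0.402% in T_992, 0.0114% in L981T_CI and 0.445% in L984T_CI. With Gm2083 and LOC100048884 added the range was 0.453 to 6.73% in livers and 0.0115 to 0.466% in tumors. This sum does not depend on how reads were split among the symbols in it, and 5 of 6 tumors lay below every liver in it. How reads with several matches were counted is not given, so the sum may lack reads that were dropped or went to copies outside it.

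Of all reads on the 22 Mup symbols, Mup20 held 8.38 to 34.6% in the livers and 61.8 to 92.9% in the tumors, with no overlap. The 18 Mup symbols that are not members held 15.2 to 74.7% in the livers and 2.18 to 17.6% in the tumors. Mup21 held 17.7% in tumor L981T_CI, where Mup3 was low, and 0.356 to 1.59% in all other libraries. Mup3 held 15.1 to 69.1% in livers, the most in liver L981_CI, and 3.39 to 22.7% in tumors.

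**Figure D3:**
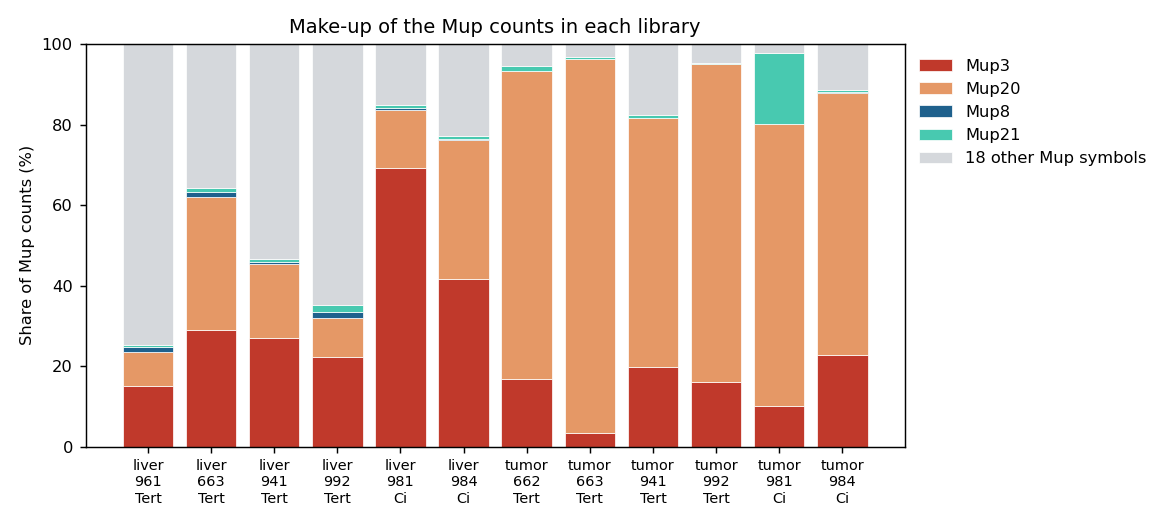
Make-up of the counts on the 22 Mup symbols in each library (x axis, livers and tumors by mouse; y axis, percent of Mup counts), stacked by Mup3, Mup8, Mup20, Mup21 and the 18 other Mup symbols. Mup20 takes 61.8 to 92.9% in the tumors against 8.38 to 34.6% in the livers.

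Compared per kilobase of exon, the livers had Mup3 at a median level of 5323 CPM per kb, Mup20 at 3713, Mup21 at 356 and Mup8 at 235. Mup3 and Mup20 overlapped across livers, as did Mup21 and Mup8, but the lowest Mup20 level (653) was above the highest Mup21 level (524). In the tumors the order was Mup20 (median 617 CPM per kb), Mup3 (142), Mup21 (19.3) and Mup8 (0.371), each overlapping the next. Within single libraries Mup20 was above Mup3 in 6 of 6 tumors and in 1 of 6 livers (p_663). The ratio of Mup20 to Mup3 per kilobase was 0.240 to 1.31 in livers and 3.31 to 31.6 in tumors, highest in p_663_T. The Mup21 level exceeded that of Mup3 in tumor L981T_CI alone of the 12 libraries, at 29.6 against 10.6 CPM per kb.

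The 18 other Mup symbols are the closest relatives of the members. Of the 16 that passed the filter on low counts, 16 fell in tumors, as did 3.91% of all genes tested, with a median log2 fold change of -6.73 beside 0.01 over all genes, from -4.23 (Mup6) to -8.08 (Mup1). Most of them share the reads of near-identical copies, so these are not 16 separate measurements. Gm2083 was the highest of the 18 in every library, at 254 to 18735 CPM in livers and 1.03 to 211 in tumors. Set against the liver of the same mouse, 22 of 22 Mup symbols were lower in tumors p_662_T, p_663_T and p_941_T, 21 in L981T_CI, 20 in T_992 and 19 in L984T_CI. The genes higher in a tumor than in its liver were Mup20 and Mup5 in T_992 and Mup20 and Mup8 in L984T_CI. Summed into 1 feature, members included, the Mup genes were at -3.88 on the log2 scale in tumors.

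Among other genes known to follow the growth hormone pattern of the male liver, 7 of 12 tested fell in tumors and none rose, beside 3.91% of all genes tested that fell. Their median log2 fold change was -2.23. This list and those that follow were written with earlier results of these data known, so their p-values are no independent test. Hsd3b5, a steroid dehydrogenase of male liver, was at -7.99 ± 1.68 (adjusted p = 0.0101 by edgeR), the organic anion carrier Slco1a1 at -4.15 ± 0.77 (0.00532) and the oxysterol hydroxylase Cyp7b1 at -3.42 ± 0.63 (0.00525). Susd4 (-3.38) and Nudt7 (-2.53) were called as well. The summed level of the 13 genes was 3090 to 6235 CPM in p21Tert livers, 1356 and 1673 in p21TertCi livers and 817 to 1420 in the tumors, so p21TertCi livers were the lower ones here too, although none of the 13 was called between the livers. Hsd3b5 read 32.1 to 354 CPM in p21Tert livers against 0.126 and 0.485 in p21TertCi livers.

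Of the female-biased list 5 genes were tested and 1, the steroid hydroxylase Cyp2a4, rose (8.15 ± 1.45, adjusted p = 0.00437 by edgeR). The summed level of this list was 6.52 to 285 CPM in livers, 28.0 and 39.6 in tumors p_662_T and p_663_T and 2460 to 2905 in the other 4 tumors. Cyp2a4 alone read 2314 to 2773 CPM in those 4 tumors, so that most of the sum there is this 1 gene. Tumors of both classes thus had low Mup3 and Mup21 while only 1 class had high Cyp2a4, which was lower in the mutated tumors at -6.84 (adjusted p = 0.00777). Of the growth hormone signal genes, 19 tested, 3 fell and 1 rose. Igf1, the hormone that growth hormone induces in liver, was at -1.86 ± 0.30 (adjusted p = 0.00274), its carrier Igfals at -1.76 and the growth hormone receptor Ghr at -1.11, while the carrier Igfbp3 rose by 2.15. Bcl6, a transcriptional repressor, was at -1.01 and not called. In the Ctnnb1 contrast the male-biased Cyp4a12a and Cyp4a12b rose, at 3.52 and 6.02, where Mup21 fell.

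Of the other lipocalins of liver and plasma, relatives of Mup in protein fold, 9 were tested and 2 fell, Ptgds (a prostaglandin synthase, -3.78) and the complement chain C8g (-0.84). Orm3 (-3.05), Orm1 (-1.41) and Apom (1.07) were not called. None of the 7 hepatocyte markers passed the test between tumors and livers, with a median of 0.28. Their summed level was above all livers in 4 tumors and below all livers in p_662_T and p_663_T. In the 4 tumors above the livers, Alb and Trf were the largest part of the sum and exceeded all livers. Apoa1, Apob and Ahsg overlapped the livers there. Serpina1c read 1797 to 3973 CPM there against 3614 to 6280 in livers, and Ttr 1669 to 4418 against 3511 to 6843. Mup3 and Mup21 were low in all 6 tumors, and the part of hepatocyte content was not tested. Of the markers of other cell types, Pecam1 of endothelium rose (1.59, adjusted p = 0.0179), and 0 of 4 T cell, 0 of 2 B cell, 0 of 4 macrophage, 0 of 4 cholangiocyte and 0 of 4 stellate cell markers were called. Of 44 tested genes that flank the Mup cluster within 5 Mb, 3 rose and 2 fell, with a median of -0.20.

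**Figure D4:**
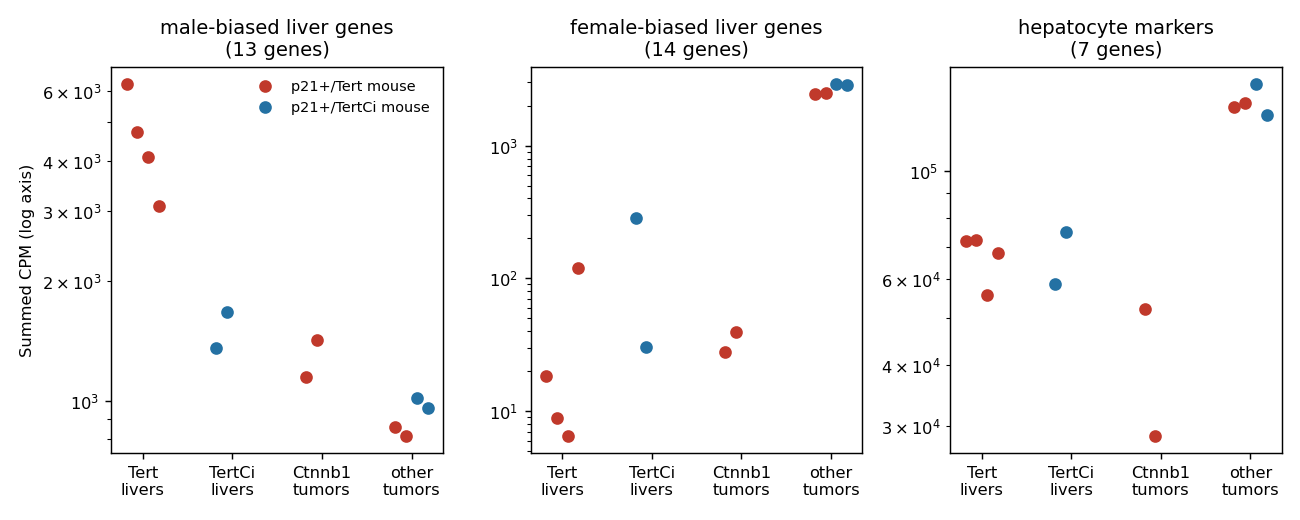
Summed level (y axis, CPM scaled by TMM, log scale, a scale for each panel) of the male-biased liver genes, the female-biased liver genes and the hepatocyte markers, 1 point a library, in p21Tert livers, p21TertCi livers, Ctnnb1-mutated tumors and other tumors (x axis), with colours for genotype. The male-biased sum is 3090 to 6235 CPM in p21Tert livers and at most 1673 in all other libraries, the female-biased sum is at least 2460 in the other 4 tumors and at most 285 elsewhere, and the hepatocyte sum is highest in the same 4 tumors. In those 4 tumors most of the female-biased sum is Cyp2a4, and most of the hepatocyte sum is Alb and Trf.

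The flanking genes were also read tumor by tumor. Across 41 of them with a mean liver level of at least 1 CPM, the median log2 ratio of a tumor to its own liver was -0.34 in p_662_T, -0.14 in p_663_T, -0.24 in p_941_T, 0.03 in T_992, -0.02 in L981T_CI and -0.03 in L984T_CI, while the median over all genes was between -0.04 and -0.01. The Mup3 ratios of the same 6 tumors ran from -9.40 to -1.38. The study's exome data report a loss on chromosome 4 in tumors p_662_T and L981T_CI. Whether that loss covers the Mup cluster was not examined here, and its part in the Mup levels was not tested.

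Across the 12 libraries, the levels of the members, as log2(CPM + 1), varied together with Pearson r between 0.73 (Mup20 and Mup21) and 0.93 (Mup8 and Mup21). The 12 points fall into livers and tumors and share mice, and r is given as a description. Within the 6 tumors r was 0.93 for Mup3 with Mup20 and 0.42 for Mup20 with Mup21. The non-Mup gene nearest to Mup3 in pattern, among 13802, was Serpine2 (r = 0.96), followed by Sox12, Cxcl12, Olfm3 and Eif2ak1. Nearest to Mup8 were Il1rap (0.97), Lncbate1, Hoga1, Pipox and Zfp955b. Nearest to Mup20 were Marveld3 (0.93), Nfib, Olfm3, Dicer1 and Usp24, and nearest to Mup21 were Marc1 (0.97), Cyp2u1, Trmt2b, Susd4 and Cyp8b1. The lists changed with the measure, and with Spearman's rho only 1 or 2 of each 5 stood among the nearest again.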

How the data were processed

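Poly(A) RNA of 6 livers and 6 tumors from 6 mice was sequenced as paired-end reads. The authors removed low-quality reads and aligned the rest to mm10 (with mCherry added) by Subread at its default settings. They counted the reads per gene with featureCounts 1.6.4, and the deposited values are raw counts per gene symbol and library. The annotation release, strand setting and counting of reads with several matches are not given in the sources used here. The study corrected for sequencing run, which the labels do not give, so this term was not used here.

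The counts were fitted as deposited with edgeR 4.0.16 (R 4.3.3) by the quasi-likelihood test, with TMM scaling, filterByExpr and Benjamini-Hochberg adjustment over all genes tested at a threshold of 0.05. Tumors against livers used 1 mean per tissue, the genotype contrasts 1 mean per genotype and tissue, and the Ctnnb1 contrast 1 mean per liver genotype and tumor class, with all 12 libraries in each fit. SE is the log2 fold change divided by the root of F. The fits were tested on simulated data before use. DESeq2 1.42.0, RLE scaling, every gene with 1 count, library sizes without Mup genes, summed Mup genes, a replicate block, fewer libraries in the fit and leaving out each library were tried as alternatives. Per-kilobase levels used the exon bases of the GENCODE annotation of GRCm38, and promoters came from RefSeq (GRCm38.p6).

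Mouse numbers pair the tissues because both samples come from 1 animal. Deviations from the group means of the same mouse correlated at r = 0.434 for NT_992 with T_992, 0.0486 for p_663 with p_663_T, 0.0416 for p_941 with p_941_T and 0.18 for p_961 with p_662_T, while both p21TertCi mice gave 0.534, fixed in size by 2 mice. Tumors p_663_T and p_941_T were closer to the liver of another mouse, at 0.181 with p_941 and 0.065 with p_663. No library repeated another. The numbers mark separate animals, except that 961 and 662 are taken as 1 animal by elimination.

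The genes named are the 4 members, the highest and lowest of the other Mup genes, the 5 genes most alike to each member by Pearson r of log2(CPM + 1), and up to 5 genes of each list with the smallest p. The members and lists were chosen with earlier results of these data known. Genes named outside this rule (Gm2083, Mup5, Mup14, Cyp4a12a, Cyp4a12b and the markers) were chosen after their values were seen. The members' values of tumors against livers, overall and by genotype, carry no p, since their counts in both tissues were known when they were chosen, and the permutation test planned for these levels is not given. The members' p-values in the Ctnnb1 contrast and between the livers rest on the same known counts and are no independent test.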

Additional observations from a re-analysis of the deposited data

Results flagged for a closer look

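In each group of 4 libraries, the highest or lowest value was compared with the others for 48 values of the Mup genes. In 9 of them 1 library was far from the other 3. The cutoff marks about 1 in 20 only for independent, normally distributed values. These values were not log-scaled and many are of near-identical copies, so the 9 cannot be set against that rate. In p21Tert livers, liver p_961 stood far above the other 3 in 7 of the near-identical Mup symbols, at 3682 CPM for Mup15, 7057 for Mup7, 8478 for Mup11, 1572 for Mup12, 3530 for Mup14, 2835 for Mup17 and 18735 for Gm2083. Of the annotated 6, Mup17 shares 40.4% of its 150-base windows with other genes and the other 5 share 72.9 to 90.7%, so these are not separate measurements. Liver p_961 did not pass the cutoff for any of the 4 members. For Mup8 it was still the highest, at 986 CPM against 169 to 333 in the other 3 p21Tert livers. In p21Tert tumors, Mup4 read 0.215 CPM in tumor T_992 and 0 in the other 3. The ratio of Mup20 to Mup3 per kilobase was 31.6 in tumor p_663_T, far above the other 3 p21Tert tumors, at 3.61 to 5.66.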

How the results depend on the processing

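No called value changed sign under any alternative. DESeq2 called more genes than edgeR in each contrast, with 2407 against 1477 in tumors against livers, 2109 against 986 in p21Tert mice, 362 against 0 in p21TertCi mice, 6 against 0 for the difference between genotypes, 3117 against 1770 for the Ctnnb1 class and 42 against 0 for the livers. The p21TertCi count became 1 with RLE scaling and 2 with every gene that had a count. The Ctnnb1 count was 766 with only the libraries compared, which are fewer samples, and 823 against p21Tert tumors alone, an alternative chosen after seeing the data. The cause of the other changes was not tested.

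With the mouse as a replicate block, tumors against livers gave 2202 genes over 6 pairs and 1860 over the 5 mice numbered in both tissues, and p21Tert mice gave 1307 and 649. The p21TertCi effect of Mup3 went from -2.36 to -4.69 under either block, and the difference for Mup8 from 8.39 to 6.34 with 5 mice. No called value of a member comes from a contrast with a block, since the tumor classes and the livers hold 1 sample of each mouse.

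Leaving out 1 library at a time gave 863 to 1988 genes in tumors against livers (lowest without liver p_961, and 942 without tumor p_941_T), 240 to 1192 in p21Tert mice (240 without liver p_961, 347 without p_663, 424 without p_941, 587 without tumor p_941_T), 0 to 7 in p21TertCi mice and 403 to 1886 for the Ctnnb1 class (403 without tumor p_662_T, 798 without p_663_T). An arm left with 1 sample is assumed to vary like the others. Of the 5 genes most alike, 2 to 5 stayed for Mup3, 1 to 5 for Mup8, 1 to 5 for Mup20 and 2 to 5 for Mup21. With a pseudocount of 0.1 CPM 2 stayed for Mup3 and 2 for Mup8, and with Spearman's rho 1 for Mup3, 2 for Mup8, 1 for Mup20 and 2 for Mup21. CPM of raw totals, each mouse's own liver as the reference and the pseudogenes (0 in the tables) moved no level by more than the spread between libraries.

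With 2 p21TertCi mice, and at 1 count of Mup8 in 3 tumors, neither the genotype contrasts nor the size of the Mup8 fall is well resolved. Genotype and mouse cannot be told apart beyond these 2 animals, and the sequencing run is not in the labels.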
